A study of Homo sapiens and Mus musculus with 7 samples.

Results

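The genes described are 2 microRNA host genes, MIR17HG and MIR22HG, and 5 genes of the core processing machinery, DROSHA, DGCR8, XPO5, DICER1 and TARBP2. They were taken by symbol from a table of gene expression in HEL cells, and all 7 of 7 had values among the 14903 genes measured. HEL is a human erythroleukaemia line with erythroid and megakaryocytic traits. The 4 groups were control cells (labelled KAP1 WT) without hemin, control cells given 50 µM hemin for 5 days, KAP1 knockdown cells without hemin, and KAP1 knockdown cells given the same hemin treatment. KAP1, encoded by TRIM28, is the co-repressor recruited to chromatin by KRAB zinc finger proteins. The sources used here do not say how the knockdown was made or what the control cells carried. Each group was 1 library from 250 ng of total RNA, so no group had a replicate. Differences between 2 libraries also hold the variation between cultures and library preparations, which could not be measured, and the intervals given cover counting error only. The table heads its control columns Ctrl, and they were matched to the KAP1 WT samples as the other genotype of the HEL samples.

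A microRNA begins as a hairpin inside a longer primary transcript, often that of a non-coding host gene. In the nucleus the Microprocessor, made of the RNase DROSHA and its RNA-binding partner DGCR8, cuts the hairpin free, and exportin 5 (XPO5) carries it to the cytoplasm with RAN-GTP. There DICER1, with its partner TARBP2, cuts off the loop, and an Argonaute protein keeps one strand as a guide that pairs with target mRNAs mainly through its seed. MIR17HG carries the miR-17-92 cluster, known for its role in cell proliferation and blood cell development, and MIR22HG carries miR-22. The libraries measure the host transcripts and the mRNAs of the machinery. Mature microRNAs were not analysed here.

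One mature microRNA of each hairpin of both hosts is shown because it gives the product behind the host transcript, with the seed (bases 2 to 8) in capitals. The sequences and positions are those of RefSeq on GRCh38.p14, a later build than the hg19 named for the expression table. The 6 shown of the miR-17-92 cluster lie on the plus strand of chromosome 13 and hold 4 distinct seeds. They start with hsa-miR-17-5p at chr13:91350618-91350640 and end with hsa-miR-92a-3p at chr13:91351361-91351382. The one shown of MIR22HG lies on the minus strand at chr17:1713914-1713935.
hsa-miR-17-5p: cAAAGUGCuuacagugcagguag
hsa-miR-20a-5p: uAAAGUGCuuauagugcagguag
hsa-miR-18a-5p: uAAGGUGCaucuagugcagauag
hsa-miR-19a-3p: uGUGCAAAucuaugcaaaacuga
hsa-miR-19b-3p: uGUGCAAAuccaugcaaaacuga
hsa-miR-92a-3p: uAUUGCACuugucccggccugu
hsa-miR-22-3p: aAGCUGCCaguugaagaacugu
The first and second share the seed AAAGUGC and differ at 2 of 23 positions. The third, hsa-miR-18a-5p, has the seed AAGGUGC and differs from hsa-miR-17-5p at 6 positions. The pair hsa-miR-19a-3p and hsa-miR-19b-3p shares the seed GUGCAAA and differs at 1 position. The seeds AUUGCAC of hsa-miR-92a-3p and AGCUGCC of hsa-miR-22-3p each occurred once among these 7.

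The promoter windows of the 2 host genes are shown because both host transcripts were lower in knockdown cells without hemin. Each window runs from 250 bases before to 50 bases after the RefSeq start, 300 bases in all, at chr13:91347437-91347736 on the plus strand and chr17:1716161-1716460 on the minus strand (GRCh38.p14). Capitals mark the CCAAT box (CCAAT, or ATTGG on the other strand) and the GC box (GGGCGG, or CCGCCC). Both strands were searched, and 2 GC boxes of the MIR17HG window overlap each other. No CCAAT box overlaps a GC box.
MIR17HG promoter window: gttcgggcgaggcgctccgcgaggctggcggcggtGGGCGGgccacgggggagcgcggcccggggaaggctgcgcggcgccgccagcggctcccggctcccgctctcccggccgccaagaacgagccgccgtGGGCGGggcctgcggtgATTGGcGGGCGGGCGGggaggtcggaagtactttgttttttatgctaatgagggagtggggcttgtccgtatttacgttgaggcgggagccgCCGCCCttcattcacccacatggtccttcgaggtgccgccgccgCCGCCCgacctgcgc
MIR22HG promoter window: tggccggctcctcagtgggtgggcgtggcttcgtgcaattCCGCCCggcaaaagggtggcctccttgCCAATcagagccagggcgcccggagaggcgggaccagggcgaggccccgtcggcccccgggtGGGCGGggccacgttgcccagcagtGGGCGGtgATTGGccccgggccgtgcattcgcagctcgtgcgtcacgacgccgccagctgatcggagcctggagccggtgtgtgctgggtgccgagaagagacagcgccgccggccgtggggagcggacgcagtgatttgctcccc
The MIR17HG window holds 1 CCAAT box and 6 GC boxes, and the MIR22HG window holds 2 CCAAT boxes and 3 GC boxes. Of 35116 promoter windows of the same length, 34.6% hold a CCAAT box and 45% hold a GC box. The E-box CACGTG, present in 7.26% of all windows, and the GATA motif AGATAA, present in 10.3%, both also searched on the other strand, matched in neither window. A match is a run of letters and not a measured binding site.

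The deposited values were reads per length of RefSeq transcript without scaling to library depth. Whole reads were recovered from them, and levels are given as scaled TPM, that is reads per base of transcript brought to a common scale per library with TMM factors. The number of reads on the transcripts used ranged from 24009541 in knockdown cells without hemin to 42077734 in knockdown cells with hemin. The knockdown target TRIM28 was at 421 scaled TPM in control cells, 400 in control cells with hemin, 317 in knockdown cells and 190 in knockdown cells with hemin. Its entry in the table holds whole numbers of unstated origin, from which no reads could be recovered, so its values are on a less certain scale than those of the other genes. It was lower in both knockdown libraries, with log2 ratios of -0.41 without and -1.07 with hemin. All 19 erythroid and megakaryocytic markers examined reached 5 scaled TPM in all 4 libraries. Of 15 markers of T cells, B cells, epithelium, fibroblasts and monocytes, 8 had values and 3 to 5 reached 5 scaled TPM in a library, with a summed level of 94.8 to 177. The summed level of the HEL markers was 20509 in control and 22684 in knockdown cells without hemin, and 64501 and 79781 with it, and its part in the results was not tested. Without hemin, knockdown ratios fell with transcript length over 11145 genes, with Spearman's rho of -0.22 and a median log2 ratio of 0.25 in the shortest quintile and -0.18 in the longest.

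MIR22HG and MIR17HG varied most of the 7 genes. Among the machinery, DICER1 and TARBP2 spanned somewhat more than the median gene over the 4 libraries (log2 spans of 0.87 and 0.78, beside a median of 0.73), and DGCR8, XPO5 and DROSHA less (0.62, 0.38 and 0.29). MIR22HG was about 3-fold lower in knockdown cells both with and without hemin and was more than 2-fold higher with hemin in both cell types. MIR17HG was 3.58-fold lower in knockdown cells without hemin, while with hemin its knockdown and control levels differed by less than the counting error. Of the machinery, DICER1 and TARBP2 moved most and in opposite directions, and DROSHA and XPO5 moved in one direction without hemin and in the other with it. None of the 5 machinery genes reached 2-fold in any comparison.

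**Figure D1:**
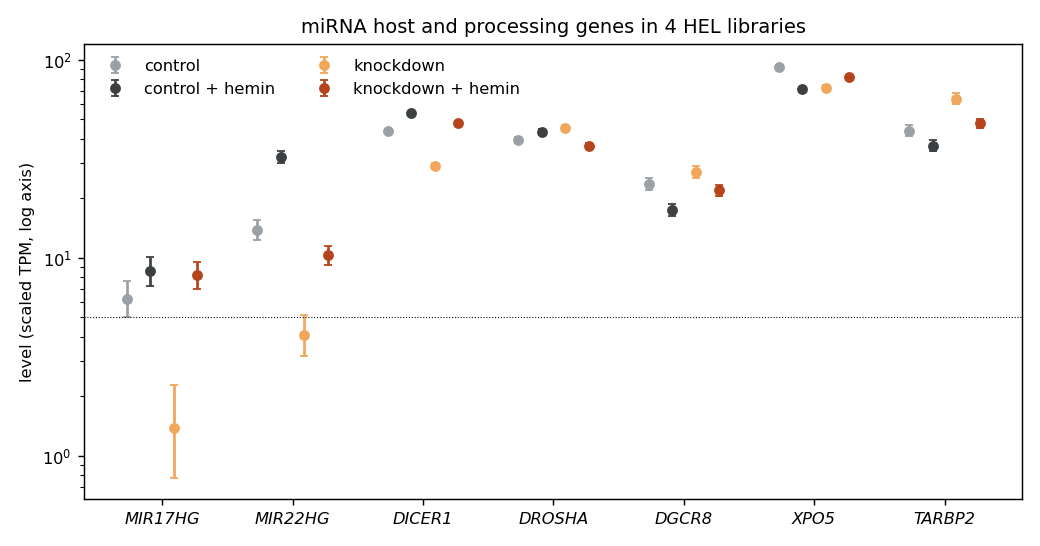
Level of each of the 7 genes (scaled TPM, log axis) in the 4 HEL libraries, 1 point per library, with bars for the 95% Poisson interval of its reads and a dotted line at the floor of 5. XPO5 was highest and MIR17HG lowest in all 4 libraries, and the point of MIR17HG in knockdown cells without hemin, at 1.38, is the only one besides that of MIR22HG in the same library, at 4.08, below the floor.

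Comparing knockdown with control cells asks how the host transcripts and the machinery stand when KAP1 is reduced. Ratios are log2 of scaled TPM + 0.5, which understates the change of low genes. The 95% intervals of ratios are exact conditional binomial intervals on the reads, without the added 0.5. A ratio can thus lie off the middle of its interval. Intervals of a difference between 2 ratios are normal approximations from the reads. They are centred on the difference with 0.5 added, which shifts those of low genes such as MIR17HG. Both kinds of interval cover counting error only. In such bulk libraries, fewer cells that express a gene and less RNA of it per cell cannot be told apart. A gene was counted as 2-fold apart where its log2 ratio passed 1 in size and at least 1 of both libraries reached 5 scaled TPM. Without hemin, 13.1% of all genes were 2-fold apart, 6.41% lower and 6.69% higher in knockdown cells, and among the 7 genes described 2 were lower and 0 higher. With hemin, 10.1% of all genes were 2-fold apart, 4.13% lower and 5.99% higher, and 1 of the 7 was lower. The median log2 ratio over the 7 genes was -0.35 without hemin and -0.07 with it, beside 0.03 and 0.01 over all genes.

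MIR17HG (NR_027349, ENSG00000215417), the host of the miR-17-92 cluster, was at 6.22 scaled TPM in control cells, 8.59 in control cells with hemin, 1.38 in knockdown cells and 8.16 in knockdown cells with hemin. These levels rested on 92, 145, 15 and 159 reads. The knockdown library without hemin was thus the low one, and the other three lay close together. Without hemin the log2 knockdown ratio was -1.84 (95% interval -3.07 to -1.38). With hemin it was -0.07 (-0.41 to 0.26), an interval that holds 0. The ratio with hemin exceeded that without by 1.77 (0.92 to 2.62). The lowest level rested on 15 reads, and a pseudocount of 2 gave a log2 ratio of -1.28 without hemin.

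MIR22HG (NR_028504, ENSG00000186594), the host of miR-22, was at 13.9 scaled TPM in control cells, 32.2 in control cells with hemin, 4.08 in knockdown cells and 10.3 in knockdown cells with hemin, on 318, 844, 69 and 311 reads. Both knockdown libraries lay below both control libraries. The log2 knockdown ratio was -1.65 (-2.16 to -1.38) without hemin and -1.60 (-1.84 to -1.46) with it, and the difference between them was 0.05 (-0.37 to 0.47). A second transcript, NR_028502, which shares reads with the first, had log2 ratios of -1.52 and -1.43. The 7.14-fold span between its highest and lowest library, on the same scale with 0.5 added, was exceeded by 1.03% of 11149 genes. That of MIR17HG, 4.84-fold, was exceeded by 2.48%.

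DROSHA (NM_001100412, ENSG00000113360), the RNase of the Microprocessor, was at 39.4 scaled TPM in control cells, 43.2 in control cells with hemin, 45.3 in knockdown cells and 36.8 in knockdown cells with hemin. The knockdown library was the highest of the 4 without hemin and the lowest of the 4 with it. The log2 knockdown ratio was 0.20 (0.13 to 0.27) without hemin and -0.23 (-0.29 to -0.17) with it, a difference of -0.43 (-0.52 to -0.33). Its span of 1.23-fold was small, and 92.1% of all genes had a larger one.

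DGCR8 (NM_022720, ENSG00000128191), the RNA-binding partner of DROSHA, was at 23.6 scaled TPM in control cells, 17.5 in control cells with hemin, 27.2 in knockdown cells and 21.9 in knockdown cells with hemin. It was higher in the knockdown library of each pair. The log2 knockdown ratio was 0.20 (0.06 to 0.35) without hemin and 0.32 (0.19 to 0.47) with it, and their difference was 0.12 (-0.08 to 0.32), an interval that holds 0. Its reads, 722 to 1046 per library, are the lowest whole numbers that fit the deposited values. These reads imply a transcript of 2268 bases. A second transcript of the gene, 4437 bases long, had 1367 to 1977 reads per library, at 16.9 to 26.5 scaled TPM. Where the true reads were a multiple of those used, the intervals are too wide.

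XPO5 (NM_020750, ENSG00000124571), the export receptor of precursor hairpins, was at 92.5 scaled TPM in control cells, 71.2 in control cells with hemin, 72.5 in knockdown cells and 81.6 in knockdown cells with hemin. The control library without hemin stood highest. The log2 knockdown ratio was -0.35 (-0.40 to -0.30) without hemin and 0.20 (0.15 to 0.24) with it, a difference of 0.55 (0.48 to 0.61). DROSHA and XPO5 thus moved in opposite directions to each other in each hemin state, by less than the median span of all genes.

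DICER1 (NM_030621, ENSG00000100697), the cytoplasmic RNase, was at 43.8 scaled TPM in control cells, 53.6 in control cells with hemin, 29.0 in knockdown cells and 47.9 in knockdown cells with hemin. The knockdown library without hemin was the low one of the 4, as for MIR17HG. The log2 knockdown ratio was -0.59 (-0.65 to -0.54) without hemin and -0.16 (-0.20 to -0.12) with it, a difference of 0.42 (0.35 to 0.49). Its 3 transcripts, which share most reads, gave -0.64 to -0.56 without hemin. The transcript is 10267 bases long, and without hemin the log2 ratio was -0.38 once the median of genes of like length was subtracted.

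TARBP2 (NM_004178, ENSG00000139546), the double-stranded RNA-binding partner of DICER1, was at 43.9 scaled TPM in control cells, 36.8 in control cells with hemin, 63.7 in knockdown cells and 47.7 in knockdown cells with hemin. The knockdown library was the higher one of each pair, and that without hemin stood highest. The log2 knockdown ratio was 0.53 (0.41 to 0.66) without hemin and 0.37 (0.26 to 0.49) with it. Their difference was -0.16 (-0.34 to 0.01). The transcript is 1448 bases long, and with the length trend removed the ratios were 0.29 without and 0.29 with hemin.

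**Figure D2:**
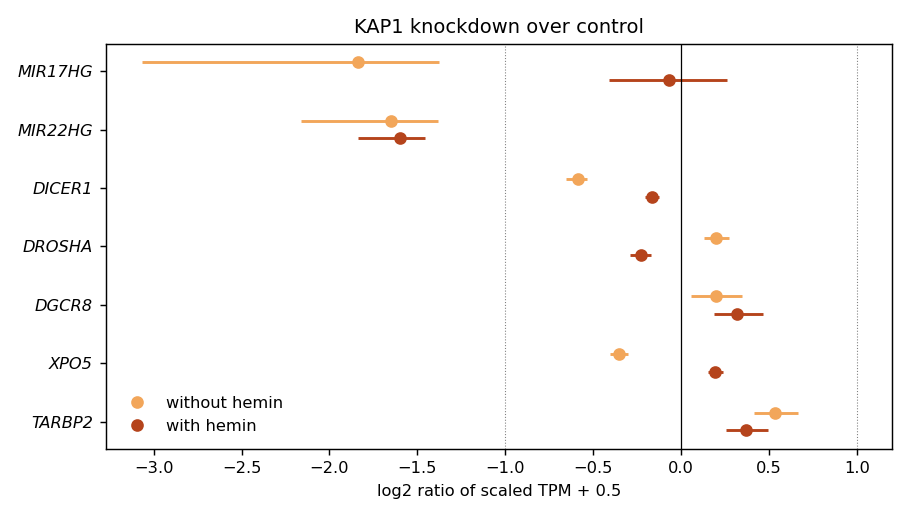
Log2 ratio of knockdown over control (scaled TPM + 0.5) for the 7 genes, without and with hemin, with 95% counting intervals. MIR22HG lies near -1.6 in both states, MIR17HG at -1.84 only without hemin, and the 5 machinery genes between -0.59 and 0.53.

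Adding hemin, which induces erythroid differentiation and globin synthesis in such lines, asks how the same genes stand in induced cells. These ratios share their libraries with the knockdown ratios above, so the 2 sets are not independent. In control cells 5.17% of all genes were 2-fold apart, 2.59% higher and 2.59% lower with hemin, and of the 7 genes MIR22HG alone passed, with a log2 ratio of 1.19 (1.03 to 1.41). In knockdown cells 3.98% were 2-fold apart, 2.27% higher and 1.7% lower with hemin, and MIR17HG and MIR22HG passed, with log2 ratios of 2.21 (1.80 to 3.44) and 1.23 (0.95 to 1.73). MIR17HG was 0.44 (0.08 to 0.86) higher with hemin in control cells. MIR22HG was thus 2.28-fold and 2.35-fold higher with hemin in control and knockdown cells, while MIR17HG was 1.35-fold and 4.61-fold higher.

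The machinery moved less with hemin. DICER1 was higher with hemin in both cell types, by a log2 ratio of 0.29 (0.25 to 0.33) in control and 0.71 (0.67 to 0.78) in knockdown cells. DGCR8 was lower in both, at -0.42 (-0.58 to -0.29) and -0.30 (-0.45 to -0.17), and TARBP2 was lower in both, at -0.25 (-0.38 to -0.12) and -0.41 (-0.53 to -0.30). DROSHA and XPO5 again changed direction between the cell types. For DROSHA the log2 ratio was 0.13 (0.07 to 0.20) in control and -0.29 (-0.37 to -0.23) in knockdown cells, and for XPO5 it was -0.38 (-0.43 to -0.33) and 0.17 (0.12 to 0.22). With the length trend removed the XPO5 ratio in knockdown cells was 0.03.

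**Figure D3:**
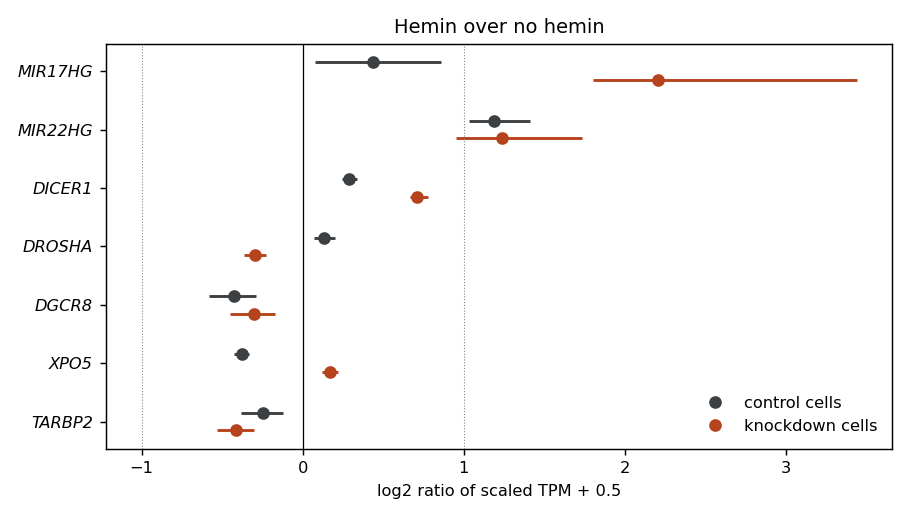
Log2 ratio of hemin over no hemin (scaled TPM + 0.5) for the 7 genes, in control and in knockdown cells, with 95% counting intervals. Both host genes lie above 0 in both cell types, with MIR17HG at 0.44 in control and 2.21 in knockdown cells, and DROSHA and XPO5 lie on opposite sides of 0 in the 2 cell types.

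As a secondary test, limma was fitted to all 11149 genes at 5 scaled TPM or more in at least 1 library, with knockdown and hemin as additive terms. The fit has 1 residual degree of freedom per gene and pools the spread over genes. That degree of freedom is the difference in the knockdown ratio between the hemin states, which cannot be separated here from variation between cultures. The fit thus did not measure the spread between replicates. At a Benjamini-Hochberg adjusted p of 0.05 it called 22.3% of genes for knockdown (12.1% rose, 10.1% fell) and 5.97% for hemin (3.01% rose, 2.96% fell). MIR22HG fell with knockdown by 1.62 (log2 units, SE 0.27, limma adjusted p = 1.45e-07), and rose with hemin by 1.21 (SE 0.27, limma adjusted p = 0.000658). MIR17HG fell with knockdown by 0.95 (SE 0.35, limma adjusted p = 0.0352) and rose with hemin by 1.32 (SE 0.35, limma adjusted p = 0.00782). The knockdown call of MIR17HG was lost in 7 of 10 alternative settings, plain library totals (limma adjusted p = 0.110) and the sum over transcripts (limma adjusted p = 0.0836) among them, and the additive term averages a ratio of -1.84 with one of -0.07.

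None of the 5 machinery genes passed for either term. The nearest was TARBP2, with a knockdown term of 0.45 (SE 0.24, limma adjusted p = 0.162), followed by DICER1 at -0.37 (SE 0.24, limma adjusted p = 0.267). DROSHA and XPO5, whose ratios had opposite signs in the 2 hemin states, had knockdown terms of -0.01 and -0.08 (limma adjusted p = 0.975 and 0.861). DGCR8 had 0.26 (limma adjusted p = 0.497). A p that misses the threshold in so small a design does not show that these genes were unchanged.

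Levels per length place the genes in an order within each library. XPO5 was highest in all 4 libraries and MIR17HG lowest. In control cells TARBP2, DICER1 and DROSHA followed XPO5, with TARBP2 and DICER1 not apart beyond counting error, and DGCR8 and MIR22HG came next. In control cells with hemin MIR22HG, at 32.2, stood above DGCR8, at 17.5, the only library with that order. In knockdown cells TARBP2, at 63.7, came directly after XPO5, at 72.5, and DICER1 and DGCR8, at 29.0 and 27.2, were not apart beyond counting error. In knockdown cells with hemin DICER1 and TARBP2, at 47.9 and 47.7, were not apart beyond counting error, while MIR22HG and MIR17HG, at 10.3 and 8.16, differed by little more than it, with a log2 ratio of levels of 0.33 (95% interval 0.05 to 0.62).

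Several of these loci overlap other genes in RefSeq, and the sources used here do not say whether counting used strand, so reads in the overlaps cannot be told apart. XPO5 overlaps POLR1C, a subunit shared by RNA polymerases I and III, which was at 57.7 scaled TPM in control cells, 63.7 in control cells with hemin, 102 in knockdown cells and 70.8 in knockdown cells with hemin. Its log2 knockdown ratio was 0.81 without hemin, where that of XPO5 was -0.35. TARBP2 overlaps MAP3K12, a kinase gene with log2 knockdown ratios of 0.70 without and 0.29 with hemin, both in the direction of TARBP2. DICER1 overlaps the non-coding DICER1-AS1, at 3.93 to 6.08 scaled TPM on 22 to 53 reads. The part of these overlaps in the ratios was not tested.

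The wider pathway was described with 5 gene lists of 76 measured genes, of which 75 reached the floor of 5 scaled TPM. Without hemin 1 was 2-fold higher (RANGAP1) and 3 were 2-fold lower (RCC1, PAPD4 and TRIM71) in knockdown cells, 5.33% beside 13.1% of all genes, with a median log2 ratio of -0.15. With hemin 2 were higher (RANGAP1 and FKBP5) and 0 lower, 2.67% beside 10.1%, with a median of 0.06. Between the hemin states 0 were 2-fold apart in control cells and 1, RCC1, was higher with hemin in knockdown cells. Of the 75, limma called 4 as risen with knockdown, 5 as fallen and 66 as not passing, beside 12.1% risen and 10.1% fallen over all genes. For hemin it called 0, beside 5.97% of all genes, and 9 had an unadjusted p under 0.05.

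The 17 nuclear cofactors of the Microprocessor had median log2 knockdown ratios of 0.17 without and 0.09 with hemin, and 0 of them were 2-fold apart in either state. DDX5, an RNA helicase that joins the Microprocessor, had log2 ratios of -0.77 (-0.80 to -0.74) without hemin and -0.03 (-0.05 to -0.01) with it and did not pass (limma adjusted p = 0.182).

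Of 7 genes of nuclear export and Dicer partners, RANGAP1 rose and NUP153 fell with knockdown, beside 12.1% and 10.1% of all genes. RANGAP1, which activates the GTPase of RAN, was at 61.6 scaled TPM in control cells, 46.1 in control cells with hemin, 145 in knockdown cells and 93.9 in knockdown cells with hemin. Both knockdown libraries lay above both controls, with log2 ratios of 1.23 (1.17 to 1.30) without and 1.02 (0.96 to 1.09) with hemin. RCC1, the exchange factor that charges RAN with GTP, was at 15.4, 14.9, 6.24 and 16.5 in the same order. Only its knockdown library without hemin was low, with a log2 ratio of -1.24 (-1.54 to -1.08) there and 0.15 (0.01 to 0.30) with hemin. PRKRA, another partner of DICER1, had ratios of -0.18 and 0.13.

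The 4 Argonautes did not pass for either term. AGO1 (listed as EIF2C1) was at 44.1 to 50.4 scaled TPM and AGO3 (EIF2C3) at 20.9 to 26.7. AGO2 (EIF2C2), the slicing Argonaute, was at 38.8 in control cells, 39.3 in control cells with hemin, 51.1 in knockdown cells and 36.1 in knockdown cells with hemin, with log2 knockdown ratios of 0.39 (0.31 to 0.49) and -0.12 (-0.20 to -0.04). AGO4 (EIF2C4) was at 10.5, 18.98, 7.77 and 12.2 in the same order, with ratios of -0.41 (-0.58 to -0.30) and -0.62 (-0.73 to -0.55). Both its knockdown values lay below their own controls. Among the 16 genes of Argonautes and their loading, the chaperone HSP90AA1 and its partner FKBP5 rose with knockdown. TSN, a subunit of the C3PO nuclease, fell, beside 12.1% risen and 10.1% fallen over all genes.

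Of 25 silencing effectors at the floor, 0 rose and 2 fell with knockdown, beside 12.1% and 10.1% of all genes. The 2 were CNOT10 of the CCR4-NOT deadenylase, which fell by 0.75 (SE 0.23, limma adjusted p = 0.00803) and the exonuclease XRN1, which fell by 0.71 (SE 0.25, limma adjusted p = 0.0230). Their median log2 ratio was -0.30 without and -0.05 with hemin. Of 10 genes of precursor tailing and turnover, 0 rose and 1 fell with knockdown, beside 12.1% and 10.1% of all genes. The one that fell was PAPD4, a nucleotidyltransferase, by 0.81 (SE 0.24, limma adjusted p = 0.00571), and the rest did not pass. LIN28B, which blocks let-7 processing, was at 32.8 scaled TPM in control cells, 25.7 in control cells with hemin, 32.3 in knockdown cells and 46.9 in knockdown cells with hemin. Its log2 knockdown ratio was -0.02 (-0.11 to 0.06) without hemin and 0.86 (0.80 to 0.94) with it, and limma did not call it (adjusted p = 0.212).

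**Figure D4:**
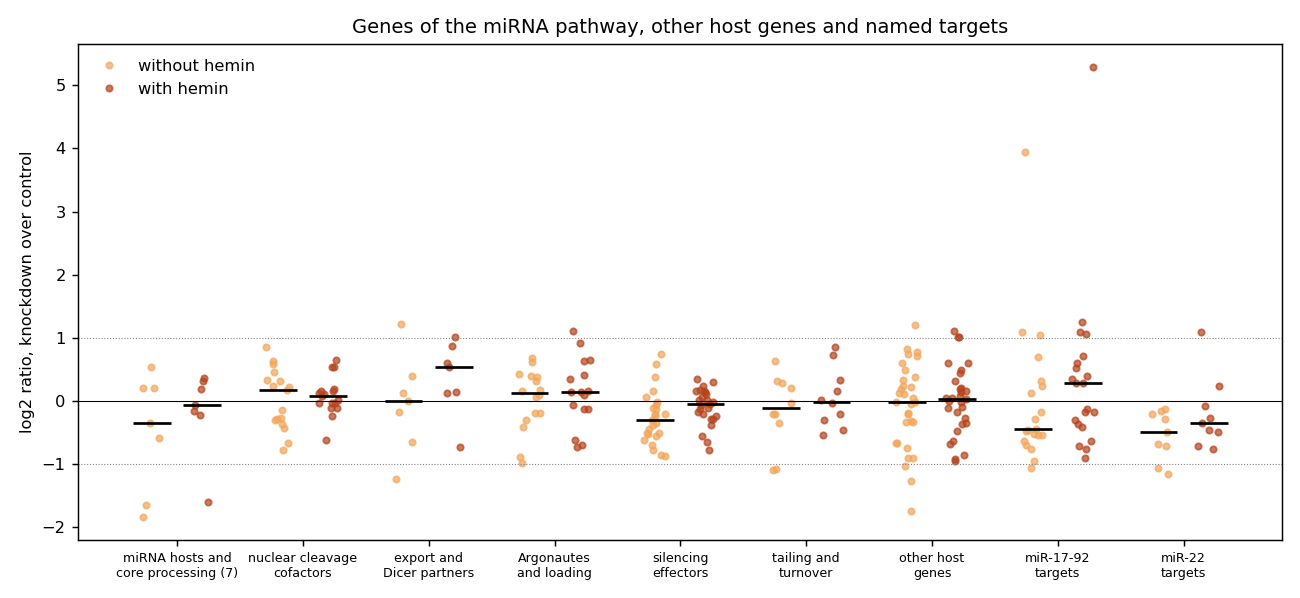
Log2 ratio of knockdown over control (scaled TPM + 0.5) without and with hemin for the genes of each list that reached 5 scaled TPM in the comparison, 1 point per gene, with black bars at list medians and dotted lines at 2-fold. Most pathway genes lie within the dotted lines, and the highest point, 5.30 with hemin, is THBS1 among the miR-17-92 targets.

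Other genes that carry microRNAs were described in the same way. Of 31 at the floor, limma called 5 as risen and 4 as fallen with knockdown, beside 12.1% and 10.1% of all genes, 22 did not pass, and the median log2 ratios were -0.01 without and 0.04 with hemin. Hosts that rose were SMC4, MEST, CTDSPL, COPZ2 and IARS2, and hosts that fell were CLCN5, GABRE, CTDSP2 and ZRANB2. SMC4, a condensin subunit that carries miR-15b and miR-16-2, was at 68.8 scaled TPM in control cells, 66.8 in control cells with hemin, 118 in knockdown cells and 135 in knockdown cells with hemin. CLCN5 was at 13.2, 8.74, 3.61 and 4.38 in the same order, with log2 ratios of -1.73 (-2.02 to -1.72) without and -0.92 (-1.12 to -0.88) with hemin. CTDSPL and CTDSP2, related phosphatase genes that each carry a copy of miR-26a, went in opposite directions, by 0.97 and -0.92 (SE 0.24 and 0.23, limma adjusted p = 0.000683 and 0.000613). For hemin limma called 0 of the 31 as risen and 2 as fallen, beside 3.01% and 2.96% of all genes. The other 29 did not pass. The 2 were MCM7, host of the miR-106b-25 cluster and thus of relatives of miR-17-92, and CTDSP1. MCM7 fell with hemin by 0.75 (SE 0.23, limma adjusted p = 0.0228), and CTDSP1 fell by 1.01 (SE 0.23, limma adjusted p = 0.000739).

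The non-coding MIR600HG, at 6.26 scaled TPM in control cells, 5.36 in control cells with hemin, 3.76 in knockdown cells and 3.27 in knockdown cells with hemin, had log2 knockdown ratios of -0.67 (-0.95 to -0.52) and -0.64 (-0.90 to -0.53). It was lower in both knockdown libraries and did not pass limma (adjusted p = 0.210). MIR671, whose entry is as short as a hairpin, rested on 4 reads in control cells, 25 in control cells with hemin, 4 in knockdown cells and 12 in knockdown cells with hemin.

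Genes named in reviews as targets of the hosted microRNAs were described as groups. Of 21 targets of miR-17-92 at the floor, limma called E2F1, E2F2 and THBS1 as risen with knockdown, RBL2 and SMAD2 were among those called as fallen, and 15 did not pass, beside 22.3% of all genes called. The list's median log2 ratio was -0.45 without hemin and 0.29 with it. The trend with transcript length was not removed from this or the other list medians, and its part in them was not tested. E2F1, a cell-cycle transcription factor, was at 34.2 scaled TPM in control cells, 20.7 in control cells with hemin, 73.6 in knockdown cells and 50.1 in knockdown cells with hemin. THBS1, a secreted matrix glycoprotein, was at 4.28, 4.83, 72.6 and 209 in the same order. Both knockdown libraries of each gene were above both controls.

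Of 10 targets of miR-22 at the floor in any library, 0 rose with knockdown. PPARA, a lipid-metabolism receptor, fell by 0.93 (SE 0.29, limma adjusted p = 0.00866). The floor left 9 of the 10 in each comparison, without CDKN1A in the one without hemin and without HDAC4 in the one with it. Of the 9 compared without hemin, 9 had a ratio below 0, beside 48.2% of all genes, with a median of -0.50. With hemin 7 of 9 did, beside 49.6% of all genes, with a median of -0.34. The trend with transcript length was not removed from these counts and medians either, and its part in them was not tested. CDKN1A, a cell-cycle inhibitor gene, had log2 ratios of 0.43 (0.10 to 0.88) without hemin and 1.09 (0.95 to 1.35) with it, and limma did not call it for knockdown (adjusted p = 0.0773).

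The genes whose pattern over the 4 libraries lay closest to those of the host genes were found among 9756 genes at the floor in all 4, by Euclidean distance of centred log2 values. For MIR17HG they were RSAD2 (distance 0.39), GMFB (0.60), GCKR (0.63), HPGD (0.65) and SLC46A3 (0.70), beside a median of 1.92 over all genes. RSAD2 had log2 knockdown ratios of -1.57 without and -0.40 with hemin. For MIR22HG they were DNAJB9 (0.39), C11orf54 (0.41), CRADD (0.43), CD53 (0.45) and KLHL24 (0.45), beside a median of 2.07. DNAJB9 had ratios of -1.81 and -1.47. With 4 libraries such likeness describes these libraries only.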

How the data were processed

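RNA-seq of HEL cells was analysed in 4 libraries, 1 per group, made with the TruSeq RNA kit v2, per the labels' protocols. Per the file headers, the values the authors deposited are RPKM of RefSeq transcripts. The submitters' processing notes name Bowtie and hg19 without a version, and further steps are not stated in the sources used here. No deposited value was 0. Within a transcript the 4 values are whole multiples of 1 step, so reads were recovered for 24533 of 24538 transcript entries (tolerance 0.0002 reads), and 5 entries of whole numbers, TRIM28 among them, have no reads. Of 24538, 986 were multiplied so that the implied length came out whole. The transcript with the highest mean value stood for each gene, library totals were scaled by TMM, and 0.5 was added before log2. Because RPKM without depth scaling are not comparable between libraries, the scaled values were used for all ratios.

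Ratios between 2 libraries carry exact conditional binomial 95% intervals on reads, which cover counting error only, and reads carry no molecular identifiers, so they are not independent molecules. No p-value was computed between 2 libraries. limma 3.58.1 (R 4.3.3) was fitted with a trend, at a Benjamini-Hochberg threshold of 0.05. The fit was also tried on simulated reads. These held a knockdown effect but no hemin effect and no difference in the knockdown effect between hemin states, unlike the real libraries. Named genes were all 7 genes described, genes of each list 2-fold apart in both knockdown comparisons (otherwise the gene furthest apart), the Argonautes, PRKRA, short MIR entries, and the 5 genes of nearest pattern. Others were named after their values were seen, as genes that limma called or that the text needed for a role. The members and lists were chosen with earlier results of these data known. Promoter and microRNA sequences are from RefSeq. The mouse ChIP-seq libraries of the series were not used here. Alternatives were other library scalings, pseudocounts, transcript choices, floors, fold limits and limma settings, and a removal of the length trend chosen after seeing the data. Some genes of the lists are not reported here by name.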

Additional observations from a re-analysis of the deposited data

Results flagged for a closer look

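The knockdown ratios of DROSHA and XPO5 had opposite signs in the 2 hemin states. For DROSHA the log2 ratio with hemin was lower than that without by -0.43, from 0.20 to -0.23. For XPO5 it was higher by 0.55, from -0.35 to 0.20. With 1 library per group the differences were not tested, and their intervals cover counting error only. Each ratio kept its sign with the length trend removed, at 0.34 and -0.19 for DROSHA and -0.21 and 0.24 for XPO5. With the deposited values as they stand both ratios of DROSHA were negative, at -0.37 and -0.01.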

How the results depend on the processing

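No paired analysis was possible because each group was 1 library and the labels give no replicate numbers, so no library could be left out of a ratio. Over 8 alternatives MIR22HG and DICER1 kept a negative knockdown ratio without hemin, from -2.15 to -1.38 and from -1.15 to -0.38. MIR17HG kept its sign without hemin, from -2.23 to -1.28, and with hemin in 6 of 8, from -0.25 to 0.14. The deposited values as they stand moved the median log2 ratio of all genes to -0.55 without hemin and 0.22 with it, plain library totals to 0.14 and 0.11, from 0.03 and 0.01. With that shift the deposited values made DROSHA, DGCR8 and TARBP2 negative without hemin, at -0.37, -0.37 and -0.04. They also turned the hemin ratios in knockdown cells of these 3 genes positive, at 0.65, 0.63 and 0.53, and the knockdown ratio with hemin of DICER1, to 0.05, and of MIR17HG, to 0.14. Plain library totals turned that of MIR17HG to 0.03 and the additive knockdown terms of DROSHA and XPO5 to 0.09 and 0.03. The 4 pathway genes 2-fold apart with knockdown without hemin became 2 with plain library totals, 18 with the deposited values, 2 with a floor of 20 and 22 at 1.5-fold. The 2 with hemin became 5 with the deposited values, 1 with a pseudocount of 2 and 17 at 1.5-fold. The 0 for hemin in control cells became 4 at 1.5-fold, and the 1 in knockdown cells became 44 with the deposited values, 0 with transcripts summed, 0 with a floor of 20 and 12 at 1.5-fold. The members whose 2 knockdown ratios differed beyond counting error were 4, and 7 with the deposited values. The 9 limma knockdown calls became 0 with the deposited values (0 at an unadjusted p under 0.05) and 0 with an ordinary model per gene (4 at an unadjusted p under 0.05). The limma calls of MIR22HG were lost in those 2 settings only. For MIR17HG the knockdown call was lost in 7 of 10 and the hemin call in 3 of 10. The cause of each was not tested beyond what the setting itself changes. Depth limits MIR17HG most, with 15 reads in its lowest library.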
